A study of Homo sapiens with 4 samples.

Results

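Cycling stromal fibroblasts are mouse cells of the implanted lesions that carried fibroblast collagen transcripts together with at least 10 transcripts of 4 proliferation genes, and they numbered 111 of 1563 fibroblasts. A transcript is counted as a unique molecular identifier (UMI). A cell counted as mouse if mouse genes gave 90% or more of its gene UMIs, with at least 3000 gene UMIs and at most 20% mitochondrial UMIs. A fibroblast had S100a8 and S100a9 below 3% of its mouse UMIs and Col1a1, Col1a2 and Col3a1 together at or above 0.2%. A cycling fibroblast had at least 10 UMIs summed over Mki67, Top2a, Cenpf and Ube2c. The measured counts of these genes chose the cells, so differences between cycling and other fibroblasts are described and not tested. The aged dECM library held 67 cycling cells among 996 fibroblasts, and the young dECM library held 44 among 567.

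The study seeded MCF10DCIS.com cells, a human line that forms lesions like ductal carcinoma in situ, on decellularised mouse mammary matrix (dECM). The aged dECM group used matrix from animals of 18 months or older, and the young dECM group used matrix from animals of 2 to 3 months. In both groups the cells grew on the matrix for 12 days and were implanted in fat pads on the right or left side of the same Rag1-deficient mouse, a host that makes no mature T or B lymphocytes. Tumour and nearby stroma were taken after 4 weeks. Each group had 1 gene expression library made from pooled, antibody-tagged cells, so there is no spread between replicates to test against, no p-value is given, and every interval is a 95% interval for counting error only. The age is that of the matrix, while the fibroblasts come from the host, so matrix and library cannot be told apart. Although each host carried both matrices, the labels assign no tag to an animal and do not say that the 2 libraries drew on the same hosts.

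A dividing cell first licenses its replication origins with the MCM helicase, then copies its DNA during S phase with the sliding clamp PCNA and a supply of nucleotides made by ribonucleotide reductase and thymidylate synthase. Cyclin-dependent kinases driven by cyclins A and B carry it into mitosis, where kinesins and kinetochore proteins move the chromosomes and the anaphase-promoting complex ends the division. Fibroblasts of tumours and wounds can re-enter this cycle, and they range from matrix-making and contractile cells to Pi16 and Dpt progenitor-like cells of the connective tissue around vessels and to inflammatory, matrix-degrading states.

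The fibroblast part of the name was checked against marker genes. All 15 fibroblast markers other than the 3 collagens of the rule had UMIs in the cycling cells of both pools, and their summed level was 19217 CPM (UMIs scaled to the same total of mouse UMIs in each class, the usual counts-per-million unit) in aged and 19224 CPM in young cycling fibroblasts, against 27244 and 23800.3 CPM in the other fibroblasts of the same pools. Fibroblast markers outnumbered leukocyte markers in 66 of 67 aged and 43 of 44 young cycling cells. Leukocyte markers summed to 215 and 301 CPM in aged and young cycling cells, against 310.1 and 319 CPM in the other fibroblasts, and 53.4% and 40.8% of those UMIs sat in 1 cell of each pool. The adipocyte markers Adipoq, Plin1, Cidec and Lep had 0 UMIs in cycling cells of either pool. Endothelial markers summed to 83.7 and 103 CPM, of which 83.5% and 91.2% came from 1 cell. Pericyte and smooth muscle markers summed to 335.0 CPM in aged and 60.5 CPM in young cycling cells, and Rgs5, a defining pericyte gene, had no UMI in the young ones. At least 5 UMIs of these markers were found in 13 aged and 6 young cycling cells, and in 1 aged cell they outnumbered the fibroblast markers. A doublet score of at least 0.25 was found in 1 of 67 aged and 0 of 44 young cycling cells, against 23 of 929 and 17 of 523 other fibroblasts.

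Cycling fibroblasts held more UMIs per cell than the others. Their mouse UMIs had a lowest value of 10869, a median of 39447 and a highest value of 117791 in the aged pool, and 15313, 43931 and 148315 in the young pool. Other fibroblasts had medians of 20185 and 20601 UMIs. Because the rule asks for a fixed number of UMIs, depth is built into membership, and the results below are therefore also given against other fibroblasts of like depth. Those had at least as many UMIs as the first quartile of the cycling cells of their pool, which left 358 aged and 128 young cells with medians of 31536.5 and 47606.5 UMIs. The 2 libraries shared 190 cell barcodes, among them 1 barcode of a young cycling cell and no barcode that was a cycling fibroblast in both.

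Cycling cells made up 6.73% of fibroblasts in the aged pool (exact interval 5.25 to 8.46) and 7.76% in the young pool (5.69 to 10.3). The intervals cover counting error only, and with 1 library a group the shares are not compared further. With every cell thinned to 3000 UMIs and a requirement of 3 UMIs, the shares were 4.02% (2.89 to 5.43) and 4.94% (3.31 to 7.06). Most fibroblasts held none of the 4 transcripts, with 81.0% of aged and 78.8% of young cells at 0. Between 4 and 9 UMIs were held by 16 aged and 5 young cells. The 3 lowest cycling cells held 10, 11 and 11 UMIs in the aged pool and 11 each in the young pool, and the 3 highest cells below the threshold held 9, 9 and 8 and 9, 8 and 7. For collagen, the lowest cycling fibroblasts of both pools held 0.211%, and the highest cycling cells below the rule held 0.170% and 0.195%. Of neutrophil cells (S100a8 and S100a9 at 3% or more), 2 of 2623 aged and 5 of 2954 young ones reached 10 UMIs. Their median depths were 4096 and 4148.5 UMIs, so a fixed count of 10 was harder to reach and no background is read from it.

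**Figure D1:**
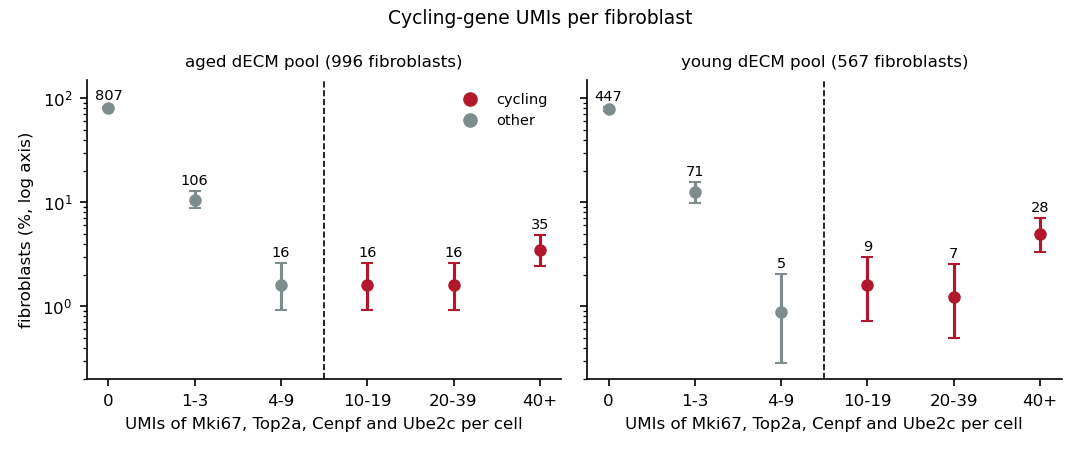
Share of fibroblasts (percent, log axis) by summed UMIs of Mki67, Top2a, Cenpf and Ube2c, for aged dECM and young dECM, with exact 95% intervals and cell numbers above the points. In both pools most cells hold 0 UMIs. Few hold 4 to 9 (16 aged and 5 young cells), and 35 aged and 28 young cells hold 40 or more. The classes widen to the right and the last has no upper limit, so no second peak is read.

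The 4 genes of the rule were at low levels in the other fibroblasts. Mki67, whose protein coats mitotic chromosomes, had 366 CPM in aged cycling cells and 3.64 CPM in other aged fibroblasts, and 321 CPM in young cycling cells and 2.49 CPM in other young fibroblasts. Per cell it ranged over 0, 319.8 and 1188 CPM (lowest, median, highest) in the aged cycling cells and over 0, 272 and 1269.8 CPM in the young ones. Single cycling cells could thus lack Mki67 and pass on the other genes. Top2a, which untangles DNA, had 426 CPM in aged cycling cells and 3.69 CPM in others, and 417 and 3.00 CPM in the same classes of the young pool. The kinetochore gene Cenpf had 304 against 0.888 CPM in the aged pool and 247 against 1.47 CPM in the young pool. The ubiquitin-conjugating gene Ube2c, a partner of the anaphase-promoting complex, had 489.6 against 2.00 CPM and 448 against 2.49 CPM. In cells thinned to 3000 UMIs, 53.7% of aged and 65.9% of young cycling cells had an Mki67 UMI, compared with 1.08% and 0.574% of other fibroblasts and 1.16% and 1.03% of neutrophils. For Mki67 the shares in other fibroblasts lay below those of neutrophils, a class whose rule does not part immature from mature cells. Median depths before thinning were 20185 and 20601 UMIs in other fibroblasts and 4096 and 4148.5 UMIs in neutrophils. In the aged pool the other 3 genes had higher thinned shares in other fibroblasts than in neutrophils, with 0.970% against 0.441% for Top2a, 0.647% against 0.321% for Ube2c and 0.323% against 0.281% for Cenpf. In the young pool these shares were 0.574% against 0.532% for Top2a, 0.574% against 0.603% for Ube2c and 0.191% against 0.213% for Cenpf. For all 4 genes the counting intervals of other fibroblasts and neutrophils overlapped in both pools, so no order of these shares is read.

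A total of 6102 genes were measured in cycling and other fibroblasts (at least 20 CPM in the higher class and 100 UMIs in each pool), leaving out the genes of the rule. In both pools 287 (4.7%) were at least 2-fold higher and 123 (2.02%) at least 2-fold lower in cycling cells. These percentages give the background for the gene groups, but since cells were chosen on their cell cycle transcripts nothing is read from them. A gene rare in other fibroblasts reaches the minimum of 20 CPM only through the cycling cells. That such a gene is higher is largely set by the minimum, so counts of higher genes in the lists below are descriptions. Against other fibroblasts of like depth, 237 of 5940 genes (3.99%) were higher and 11 (0.185%) were lower. Shared with the counts above were 232 of the 287 higher genes and 6 of the 123 lower ones. So the higher side was largely held at like depth and the lower side was not.

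Genes of DNA replication were higher in nearly every case. Of the 15 origin licensing and helicase genes, 9 were measured and all 9 were at least 2-fold higher, with a median log2 ratio of 2.37 in aged and 2.17 in young cells, where all measured genes had 0.08 and 0.05. Mcm6, a subunit of the helicase ring, had 33.1 CPM in aged cycling and 5.95 CPM in other aged fibroblasts (5.55-fold, interval 4.23 to 7.27), and 40.5 and 7.18 CPM in the young pool (5.64-fold, 4.18 to 7.59). Gmnn, whose product geminin blocks a second round of licensing, had 72.0 against 7.77 CPM and 67.3 against 6.96 CPM. Among DNA synthesis and nucleotide supply genes 20 of 21 were higher, with medians of 2.52 and 2.38, and at like depth 18 of 20. The clamp gene Pcna, which also serves DNA repair in resting cells, had the modest ratios of 3.24-fold (120.2 against 37.1 CPM) and 2.86-fold (119 against 41.5 CPM). Rrm2, the limiting subunit of ribonucleotide reductase, was 22.7-fold higher (102 against 4.48 CPM) and 30.1-fold higher (143 against 4.76 CPM). The exception was Slbp, which binds the end of histone mRNA, at log2 ratios of 0.58 and 0.49.

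Replication-dependent histone genes, transcribed in S phase, were higher in 8 of 9 measured cases, with medians of 3.75 and 4.58. The linker histone gene Hist1h1b had 376 against 3.64 CPM in the aged pool and 643 against 2.93 CPM in the young pool. These genes lie in clusters of near-identical copies that the counting may not tell apart, and most of their mRNA lacks a poly(A) tail, so their levels are uncertain. Repair genes coupled to replication were measured in 4 cases and higher in all 4. One of them, Rad51ap1, which assists strand exchange, had 36.2 against 0.844 CPM and 40.9 against 1.03 CPM.

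Mitotic genes stood furthest from the other fibroblasts. The rule chose cells on genes that include Cenpf and Ube2c, which peak in G2 and mitosis, so this order is not read as a result. All 10 measured mitotic kinase and checkpoint genes, all 15 centromere and kinetochore genes and all 23 spindle, kinesin and cytokinesis genes were higher. Their median log2 ratios were 6.38, 5.67 and 5.85 in the aged pool and 5.69, 5.09 and 5.76 in the young pool. Genes such as Plk1, Prc1 and Kif11 were so rare in other fibroblasts that they counted as measured only through the cycling cells. Nothing is read from all measured genes being higher. At like depth 10 of 10, 15 of 15 and 21 of 22 were higher, with medians of 5.84, 5.31 and 5.48 in aged and 5.25, 4.97 and 5.79 in young cells. Plk1, the polo-like kinase of mitotic entry, had 103 CPM in aged cycling cells and 0.799 CPM in others (129-fold, 80.1 to 220.3), and 115 and 0.733 CPM in the young pool (158-fold, 84.3 to 333). It was present in 53 of 67 aged and 37 of 44 young cycling cells. Prc1, which bundles the central spindle, had 344 against 1.73 CPM and 329 against 1.90 CPM. Kif11, the kinesin that separates the spindle poles, had 84.4 against 0.444 CPM in the aged pool and 73.7 against 0.0733 CPM in the young pool, where the other fibroblasts held 1 UMI.

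Kinetochore and spindle genes with the next highest ratios followed the same pattern. Cenpe, a kinetochore motor, had 218 against 1.86 CPM in aged and 219 against 1.03 CPM in young cells. Knl1, the kinetochore scaffold, had 94.3 against 0.400 CPM and 99.6 against 0.220 CPM. Nusap1 and Aspm, which organise spindle microtubules, had 120.5 and 76.1 CPM in aged cycling cells against 0.666 and 0.488 CPM in others, and 136 and 72.7 CPM in young cycling cells against 0.659 and 0.293 CPM. Cells with these transcripts were the rule among the members rather than a few: Cenpe was found in 65 of 67 and 43 of 44. Among genes of the highest ratios outside those lists, the cohesin acetyltransferase gene Esco2 had 37.2 against 0.178 CPM and 44.1 against 0.293 CPM. The mitotic kinase gene Pbk had 64.0 against 0.533 CPM and 89.1 against 0.806 CPM. Pimreg, a mitotic regulator, had 63.0 against 0.488 CPM and 59.6 against 0.147 CPM, and Depdc1a, a cell division gene, 67.8 against 0.622 CPM and 50.9 against 0.293 CPM.

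Late and early cyclin genes differed. Of 15 measured cyclin, kinase and regulator genes 9 were higher, with medians of 2.37 and 2.13. Cdk1, the mitotic kinase itself, ranged per cell over 0, 203 and 1078 CPM in aged cycling cells and over 0, 272 and 692 CPM in young ones. Its summed level was 264 against 7.90 CPM in the aged pool (33.4-fold, 28.3 to 39.5) and 261 against 7.03 CPM in the young pool (37.1-fold, 29.9 to 46.6). Ccna2, the S and G2 cyclin, had 119 against 0.666 CPM and 123 against 0.513 CPM, and the mitotic cyclin gene Ccnb1 had 129 against 1.2 CPM and 133 against 0.879 CPM. The growth factor-responsive D-type cyclins were not in that group. Ccnd1 had log2 ratios of 0.71 and 0.29, and Ccnd2 of -0.60 and -1.07. Among brakes, the INK4 inhibitor genes Cdkn2c (47.5 against 19.1 CPM, and 54.1 against 18.3 CPM) and Cdkn2d (99.2 against 23.8 CPM, and 117 against 23.9 CPM) were higher in cycling cells. The p53 target Cdkn1a had 186 against 267 CPM and 270.1 against 333 CPM, log2 ratios of -0.52 and -0.30, and Cdkn1b had -0.02 and 0.03. Cdkn1c, which encodes p57, was lower at 8.26 against 113 CPM in the aged pool and 35 against 75.5 CPM in the young pool, but at like depth its log2 ratios were -3.23 and 0.93.

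Exit and chromatin genes were mostly higher as well. In the anaphase-promoting complex and mitotic exit list 7 of 8 were higher (medians 4.74 and 4.48), with its activator gene Cdc20 at 153 against 4.35 CPM and 152 against 6.30 CPM. In the condensin and chromatin list 14 of 15 were higher (2.35 and 2.44), with the chromatin architecture gene Hmgb2 at 718 against 68.7 CPM and 622 against 61.4 CPM. The E2F, MuvB and RB list had 4 measured members, of which 3 were higher, and its E2f1 had log2 ratios of 0.93 and 0.50. By contrast, of 14 Myc, nucleolar and translation genes only Dkc1, a pseudouridine synthase of ribosomal and telomerase RNA, was 2-fold higher in both pools, and Myc had log2 ratios of -0.95 and -0.31.

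**Figure D2:**
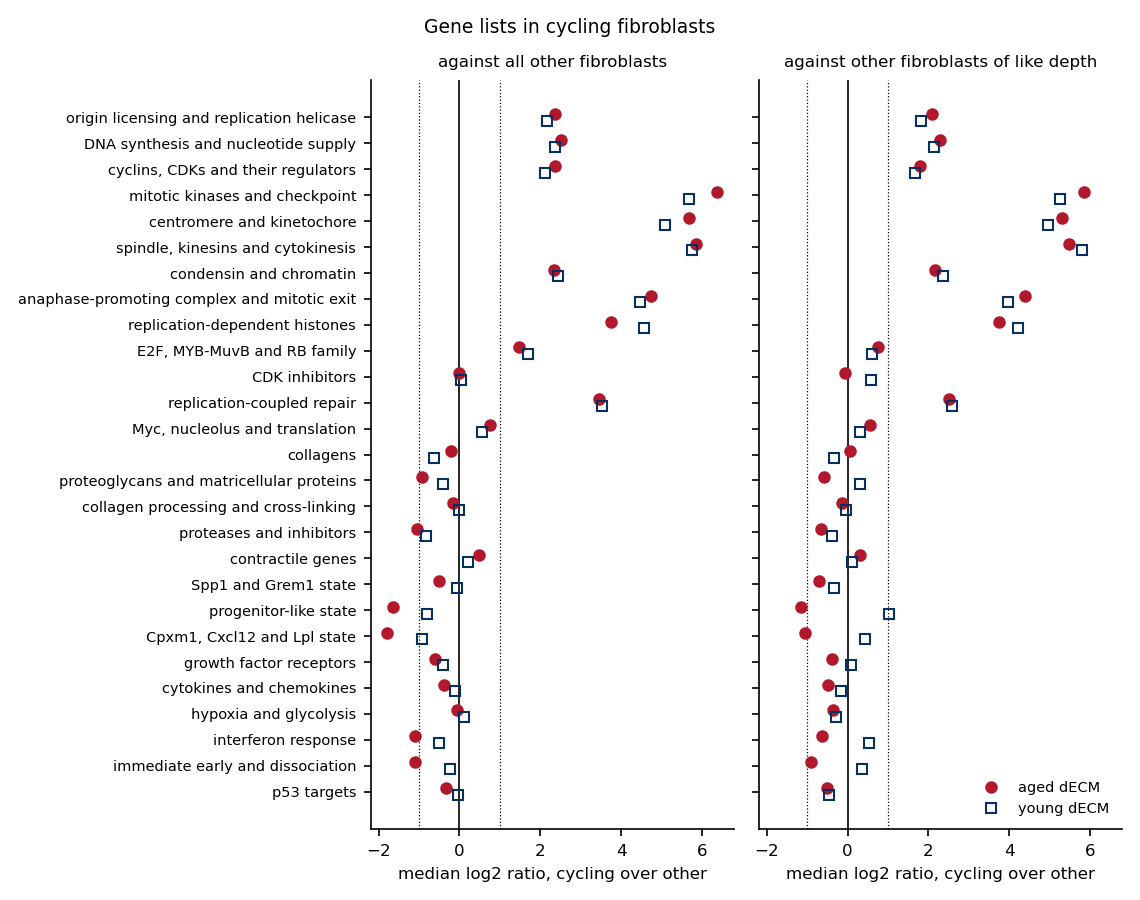
Median log2 ratio of cycling over other fibroblasts for each of 27 gene lists, with aged dECM as filled red circles and young dECM as open blue squares, against all other fibroblasts (left) and against those of like depth (right). The dotted lines mark 2-fold. Cell cycle lists lie to the right in both panels and both pools, while the progenitor-like list lies at -1.65 and -0.81 on the left and at -1.15 and 1.03 on the right.

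Matrix and fibroblast-state genes were lower in cycling cells only in part, and this side depended on depth. Of 16 collagen genes outside the rule none was 2-fold higher or lower in both pools (medians -0.21 and -0.62), and the same held for 15 collagen processing and cross-linking genes (-0.17 and -0.01), 13 contractile genes (0.49 and 0.21) and 12 growth factor receptor genes (-0.61 and -0.41). The small proteoglycan gene Dcn had 2726 against 5455 CPM in the aged pool and 3319.7 against 4779 CPM in the young pool. Per cycling cell Dcn ranged over 0, 2109 and 10313 CPM in the aged pool and over 171, 2959 and 8833 CPM in the young pool. The receptor gene Pdgfra had 182 against 282 CPM and 149.6 against 245 CPM, log2 ratios of -0.63 and -0.71.

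Progenitor-like genes were lower in 5 of 12 cases. Pi16, a marker of adventitial fibroblasts, had 199 against 894 CPM in the aged pool (4.49-fold lower, 4.13 to 4.89) and 413 against 854 CPM in the young pool (2.07-fold lower, 1.93 to 2.21). Dpt, a matrix protein of the same cells, had 164 against 831 CPM (5.07-fold lower, 4.63 to 5.56) and 211 against 653 CPM (3.10-fold lower, 2.82 to 3.41). At like depth their log2 ratios were -1.55 and -1.64 in aged but 1.24 and 1.05 in young cells. The reference changed with depth: 34.1% of the deeper aged fibroblasts and 64.8% of the deeper young ones held under 1% collagen, compared with 21.4% and 27.9% of all other fibroblasts. With other fibroblasts of like depth and both classes at 1% collagen or more, the list medians were -1.26 and 0.16. These limits are minima and do not match the classes. Median depth was 28888 UMIs in these other aged cells against 34673 in cycling ones, and 35883 against 35366.5 in the young pool. Median collagen was 3.68% against 2.94% in the aged and 3.06% against 3.26% in the young pool. The part of depth and of fibroblast state in the lower genes cannot be told apart in either pool.

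The same limit holds for the genes with the lowest ratios. Scara5, a ferritin receptor, had 6.89 against 77.6 CPM in aged and 11.4 against 58.3 CPM in young cells. Slfn5, a Schlafen gene, had 36.2 against 297 CPM and 49.1 against 228 CPM, and the interferon-inducible Ifi205 had 13.1 against 98.8 CPM and 14.5 against 72.6 CPM. Lpl, lipoprotein lipase, had 83.0 against 402 CPM and 28.2 against 229.7 CPM. Apod, a lipid carrier, had 48.5 against 344 CPM and 52.7 against 259 CPM, and Ace, the angiotensin-converting enzyme, had 16.9 against 124 CPM and 22.3 against 100.4 CPM. Of the 12 lowest genes Ace, Apod, Entpd2, Ggt5, Ifi205, Itgbl1, Lpl, Qpct, Reg1, Scara5, Scg3 and Slfn5, 8 had a positive log2 ratio in the young pool at like depth.

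A few lower genes were also lower at like depth. These 6 were the interferon-induced Ifit1 and Iigp1, the proteases Mmp10 and Mmp13, the angiogenic factor Pgf and the membrane protein gene Tmem150a, which were named after their values were seen. Ifit1 had 3.44 against 36.9 CPM in the aged pool and 11.4 against 44.2 CPM in the young pool, and log2 ratios of -3.47 and -1.92 at like depth. Mmp13, an interstitial collagenase, had 24.1 against 83.7 CPM and 10.0 against 98.3 CPM, with -1.65 and -2.97 at like depth. Mmp10, the stromelysin gene, had 45.1 against 96.0 CPM and 51.4 against 122 CPM, with -1.45 and -1.61. Mmp13 was found in 8 of 67 aged and 6 of 44 young cycling cells, and Ifit1 in 6 and 13.

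Cycling fibroblasts lay on both sides of 1% collagen, a division chosen after the data were seen. Collagen ranged over 0.211, 1.41 and 5.84% of UMIs in the aged cycling cells and over 0.211, 1.23 and 4.61% in the young ones. Below 1% lay 30 of 67 aged (44.8%) and 22 of 44 young cycling cells (50%), against 21.4% and 27.9% of other fibroblasts. The share of cycling cells was 13.1% in both pools below 1%, and 4.82% and 5.51% at or above it. With cells thinned to 3000 UMIs it was 3.93% and 5.95% below 1%, and 4.05% and 4.51% at or above it. The low-collagen fibroblasts were the deeper ones, with medians of 31659 and 36141 UMIs among the non-cycling, against 19292 and 18199 at 1% or more, and no order of the shares is read.

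**Figure D3:**
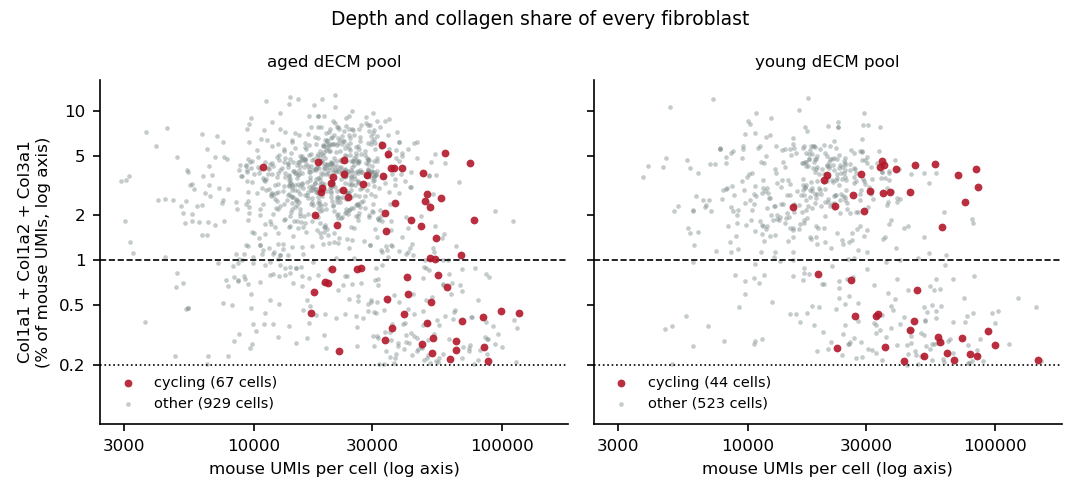
Mouse UMIs per cell against Col1a1, Col1a2 and Col3a1 as a percent of them, both on log axes, for each fibroblast of the aged dECM and young dECM pools, with cycling cells in colour and others in grey. The dotted line is the 0.2% rule and the dashed line 1%. Cycling cells lie at higher UMIs, with medians of 39447 and 43931 against 20185 and 20601, and on both sides of 1%.

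The cycling cells of the 2 collagen ranges carried different fibroblast genes. Spp1, which encodes osteopontin, had a median of 15221 CPM in aged and 18955 CPM in young cycling cells under 1% collagen, and 1320.3 and 90.5 CPM in those at or above it. Over all cycling cells Spp1 ranged from 0 to 76838 CPM in the aged and from 0 to 41624 CPM in the young pool, so its values overlap between the ranges. Pi16 ran the other way, with summed levels of 401 CPM in aged and 880.0 CPM in young cycling cells at or above 1%, and 11.3 and 65.8 CPM under it. The contractile gene Acta2 had summed levels of 2426 and 2519 CPM at or above 1%, and 868 and 565 CPM under it. Other fibroblasts differed in the same direction, with per-cell Spp1 medians of 20234 and 28639 CPM under 1% and 68.9 and 76.2 CPM at or above it. Their summed Spp1 levels, which a few high cells can raise, were 30018 and 36388 CPM under 1% and 4405 and 4405 CPM at or above it.

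The cycling transcripts were higher in both collagen ranges. Under 1% collagen 132 of 5725 genes (2.31%) were at least 2-fold higher and 38 (0.664%) lower in cycling cells of both pools. At or above 1% they were 248 of 6056 (4.1%) and 156 (2.58%), and 115 higher and 10 lower genes were shared by these 2 sets and the main one. At or above 1% and like depth, 134 of 4454 genes (3.01%) were higher and 38 (0.853%) lower. Cdk1 had log2 ratios of 4.71 in aged and 4.80 in young cells under 1%, and 5.32 and 5.63 at or above it. At or above 1% 4 contractile genes, Acta2, Tagln, Cnn1 and Actg2, were also 2-fold higher in cycling cells. Of them the calponin gene Cnn1 alone was so at like depth as well (log2 1.35 and 1.45), while Acta2 had 0.94 and 0.37. Under 1% collagen 0 of 12 measured contractile genes were higher and 1 was lower, with medians of -0.28 and -0.34. Pericytes and smooth muscle cells also express contractile genes, and the part of cells with their markers in this difference was not tested.

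Most cycling fibroblasts held more mitotic than S-phase transcripts. Licensing and DNA synthesis genes (41) summed per cell to 447, 1534 and 5670.3 CPM in the aged pool and to 269.7, 1820.0 and 5409.5 CPM in the young pool (lowest, median, highest). Mitotic genes (61, without the genes of the rule) summed to 601, 5790.5 and 19116 CPM and to 440.2, 5127 and 15136 CPM. More S-phase than mitotic UMIs were found in 11 of 67 aged cells (16.4%, 8.49 to 27.5) and in 7 of 44 young cells (15.9%, 6.64 to 30.1). The rule itself leans to G2 and mitosis, because Cenpf and Ube2c peak there. Correspondingly, 23 of 929 aged and 12 of 523 young fibroblasts outside the rule had S-phase levels at or above the first quartile of the cycling cells, and 19 and 10 of these held at least 1 UMI of the 4 rule genes.

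**Figure D4:**
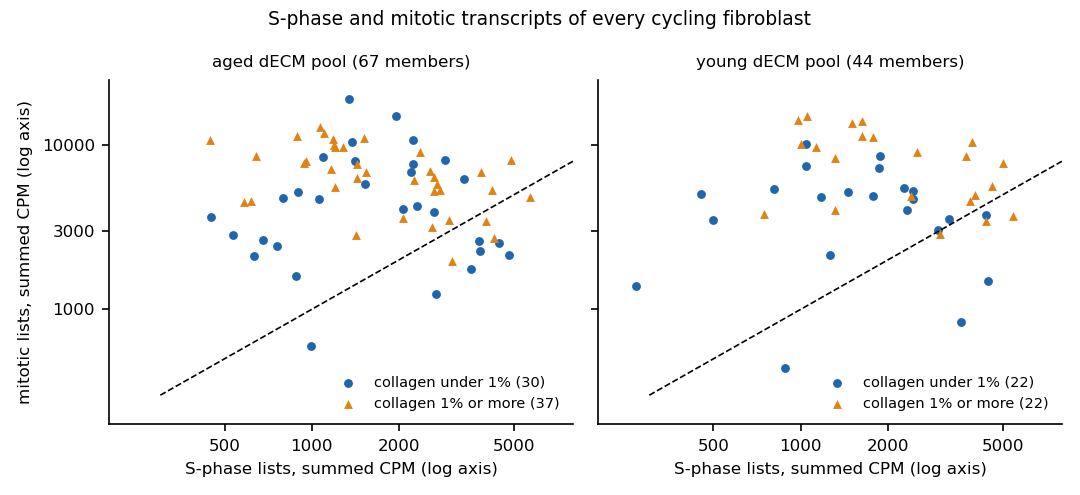
S-phase list CPM against mitotic list CPM of each cycling fibroblast, on log axes, for aged dECM and young dECM, with circles under 1% collagen and triangles at or above it. The dashed line marks equal levels, and 11 of 67 aged and 7 of 44 young cells held more S-phase than mitotic UMIs.

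Between the pools, few cell cycle genes of cycling fibroblasts stood apart, while collagen, progenitor-like and immediate early genes did. Of 6002 genes measured (20 CPM or more in either pool and 100 UMIs over both), 149 (2.48%) were at least 1.5-fold higher and 254 (4.23%) at least 1.5-fold lower in aged than in young cycling cells. In both collagen ranges 48 and 71 of these were apart in the same direction, 12 and 15 were apart in the other fibroblasts as well, and 99 and 162 were apart when each gene's top cell was left out. The median log2 ratio over all measured genes was -0.01. The licensing, synthesis, cyclin, mitotic kinase, kinetochore, spindle, condensin and exit lists had medians between -0.04 and 0.07. The 2 collagen ranges ran in opposite directions, with medians of these 8 lists between 0.09 and 0.46 under 1% collagen and between -0.34 and -0.13 at or above it. Of their genes only Uhrf1 (40.3 against 26.4 CPM), which maintains DNA methylation at the fork, Ccnf (32.4 against 17.7 CPM), which encodes cyclin F, and Cdca2 (19.6 against 30.5 CPM), a chromatin regulator of mitotic exit, were past 1.5-fold. Cdk1 had 264 against 261 CPM and Plk1 103 against 115 CPM. The pools also differed in sex-linked transcripts. The X-inactivation transcript Xist was found in 16 of 67 aged and 18 of 44 young cycling cells, and Y-linked transcripts in 5 and 2. Among cells at or above 1% collagen Xist was found in 11 of 37 and 16 of 22, so the pools differed in the share of cells with this transcript. The part of this in the differences below was not tested.

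Histone genes had the lowest median of the cell cycle lists, -0.48 (0.01 in other fibroblasts), with 3 of 11 lower in the aged pool. Hist1h1b had 376 against 643 CPM (1.71-fold lower, 1.58 to 1.85), Hist1h3c had 31.7 against 69.6 CPM (2.20-fold lower, 1.68 to 2.88) and Hist1h1d had 36.5 against 55.9 CPM (1.53-fold lower, 1.17 to 2.01). All 3 were past 1.5-fold under 1% collagen, where the list median was -0.70. At or above 1% the list median was -0.06, and Hist1h1d (log2 -0.04) was not past 1.5-fold there. Without the top cell of each pool Hist1h1d had a log2 ratio of -0.50 and was no longer past 1.5-fold. In this family the counting may not tell near-identical copies apart.

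Collagen genes other than those of the rule were higher in aged cycling cells in 6 of 16 cases and lower in 1, with a list median of 0.48, compared with 0.09 in the other fibroblasts. The basement membrane chains Col4a1 and Col4a2, which share a promoter region and form 1 trimer, had 455 against 152 CPM (2.99-fold, 2.65 to 3.38) and 239 against 88.2 CPM (2.70-fold, 2.30 to 3.19). Col15a1 and Col18a1, the multiplexins of basement membrane zones, had 155 against 69.6 CPM (2.23-fold) and 120.2 against 55.9 CPM (2.15-fold). Col5a3, a fibril-regulating chain, had 413 against 229 CPM, and Col7a1, the anchoring fibril collagen, 48.9 against 26.4 CPM. All 6 were past 1.5-fold in both collagen ranges and none was so in the other fibroblasts. No single cell held over 22.4% of the UMIs of any of these 6 genes in either pool, and without the top cells their log2 ratios were 0.89 to 1.52. Pericyte and smooth muscle markers were also higher in aged cycling cells, at 335.0 against 60.5 CPM. In the 54 aged and 38 young cycling cells with fewer than 5 UMIs of these markers, Col18a1 had 61.2 against 62.7 CPM and was no longer apart (log2 -0.03). In these cells Col4a1 had 267 against 142 CPM (log2 0.91), Col4a2 144 against 84.3 CPM (log2 0.77) and Col15a1 102 against 58.0 CPM (log2 0.82), while Col5a3 and Col7a1 had log2 ratios of 0.90 and 1.37. Col14a1, a fibril-associated chain, was lower at 189 against 293 CPM. The rule collagens were close, with Col1a1 at 5591 against 4910 CPM, Col1a2 at 4953 against 5404 CPM and Col3a1 at 5624 against 5685 CPM.

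Progenitor-like genes were lower in aged cycling cells in 8 of 12 cases, with a median of -0.83 compared with 0.07 in other fibroblasts. Pi16 had 199 against 413 CPM (2.07-fold lower, 1.87 to 2.31). Clec3b, which encodes tetranectin, had 20.7 against 54.6 CPM, and Dpp4, a cell surface peptidase, had 13.1 against 34.6 CPM, both 2.64-fold lower. Ly6a, the Sca-1 antigen, had 500.3 against 896 CPM, and Ly6c1 had 145 against 285 CPM. Their family members are close copies, which the counting may not tell apart. The others were Sema3c, a guidance ligand, Ackr3, a CXCL12 scavenger receptor, and Gfpt2, an enzyme of hexosamine synthesis. All 8 were past 1.5-fold under 1% collagen and 7 of them at or above it. Cells with a Pi16 UMI numbered 25 of 67 in the aged and 25 of 44 in the young pool. Without the top cells Gfpt2 had -0.56, under 1.5-fold, and the other 7 had -0.85 to -1.53.

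**Figure D5:**
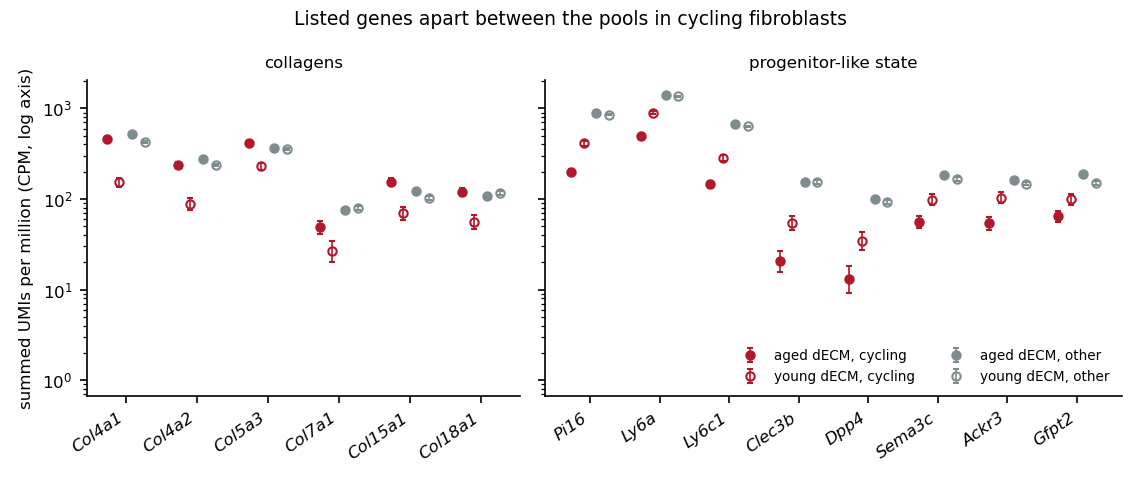
CPM (log axis, 95% counting intervals) of 6 collagen genes and 8 progenitor-like genes in cycling fibroblasts (red) and other fibroblasts (grey) of the aged dECM (filled) and young dECM (open) pools. The genes shown were chosen because they were past 1.5-fold between the pools in cycling cells, so their red points lie apart by choice. The closer grey points are not read as a result. Col4a1, for example, had 455 against 152 CPM in cycling cells and 526 against 422 CPM in others.

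Proteoglycan and matricellular genes, with which elastic fibre genes were listed, were lower in 6 of 20 cases. Elastin, Eln, had 56.1 against 194 CPM (3.46-fold lower, 2.88 to 4.17), but 65.8% of its young UMIs came from 1 cell, and without the top cells it had 37.8 against 68.2 CPM. Ogn and Prelp, small leucine-rich proteoglycans, had log2 ratios of -1.12 and -0.78, and Tnxb, tenascin-X, had -0.93. Immediate early and dissociation genes, which respond within minutes to tissue handling, were lower in 8 of 17 cases with a median of -0.51, while other fibroblasts of the same libraries had 0.28. Atf3, a stress factor gene, had 90.9 against 239 CPM (2.63-fold lower, 2.26 to 3.06), Klf4 had 133 against 281 CPM and the small heat shock gene Hspb1 274 against 572 CPM. The part of handling in the other pool differences was not tested.

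Some signalling genes stood apart as well. Among receptors 3 of 12 were higher in aged cycling cells: Pdgfrb, the PDGF-B receptor, at 139 against 85.5 CPM (1.62-fold, 1.36 to 1.94), Il1r1, the interleukin-1 receptor, at 153 against 89.6 CPM (1.71-fold, 1.44 to 2.03), and Tgfbr1 at 35.5 against 21.8 CPM. Pdgfrb is also a pericyte gene, and in the cells with fewer than 5 pericyte and smooth muscle marker UMIs it had 121 against 73.8 CPM (log2 0.71), Il1r1 had a log2 ratio of 0.83 and Tgfbr1 one of 0.25, under 1.5-fold. Pdgfra had 182 against 149.6 CPM. Mmp9, a gelatinase also made by neutrophils, had 144 against 68.2 CPM. The 6 neutrophil markers, of which Mmp9 is one, summed to 1160 and 1178 CPM in aged and young cycling cells. Of those UMIs 11.8% and 32.9% lay in 1 cell of each pool, and without the top cells the sums were 1031 and 809 CPM. The part of neutrophil RNA in the Mmp9 difference was not tested. Cytokine and chemokine genes were lower in 6 of 20 cases, among them Ccl8, a monocyte chemokine, at 43.7 against 124 CPM (36.7 against 66.5 CPM without the top cells), Has1, a hyaluronan synthase, at 72.6 against 173 CPM, and Lif at 30.3 against 51.8 CPM. Of 7 interferon response genes 3 were lower, with Ifi27l2a at 197 against 409.7 CPM.

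Genes of the Spp1 and Grem1 state differed between pools in a way that depended on the collagen range. Spp1 had 14488 against 14044 CPM. Grem1, a BMP antagonist, had 268 against 682 CPM (2.54-fold lower, 2.33 to 2.77), Il11, a gp130 cytokine, 137 against 308 CPM, and Areg, the EGFR ligand amphiregulin, 87.8 against 467 CPM (5.31-fold lower, 4.63 to 6.12). Under 1% collagen their log2 ratios were -1.50, -1.24 and -2.41, and at or above 1% they were 4.08, 2.01 and 3.07. The range at or above 1% held 37 aged and 22 young cycling cells, with median Spp1 levels of 1320 and 90.5 CPM. A few cells of this state could therefore set the ratios there. In other fibroblasts Grem1, Il11 and Areg all had -0.61, so they were lower in the aged pool there as well.

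The inhibitor genes Cdkn1c and Cdkn2a were lower among 7 CDK inhibitors. Cdkn1c had 8.26 against 35 CPM (4.24-fold lower, 2.65 to 7.01), and Cdkn2a, the Ink4a and Arf locus, had 80.9 against 147 CPM (1.82-fold lower, 1.53 to 2.16), with 44.9% of its young UMIs in 1 cell and a log2 ratio of -0.45, under 1.5-fold, without the top cells. Bdnf, a neurotrophin gene, had 7.57 against 36.8 CPM, present in 14 aged and 22 young cells, and was lower in both collagen ranges (log2 -2.21 and -2.41).

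Several of the highest and lowest pool ratios rested on single cells. Gpnmb (57.5 against 0.455 CPM), Mmp12 (54.4 against 0.455 CPM) and Arg1 (45.4 against 1.82 CPM), genes of tissue macrophages, had 98.8%, 94.3% and 96.2% of their aged UMIs in 1 cell. Without the top cells they had 0.701, 3.15 and 1.75 CPM in aged against 0, 0 and 1.39 CPM in young cycling cells. In the opposite direction the complement genes C1qa (11.0 against 89.6 CPM), C1qb (4.48 against 64.6 CPM) and C1qc (9.30 against 62.3 CPM), which macrophages make, had 96.4% to 98% of their young UMIs in 1 cell, and all 121 UMIs of the chemokine gene Ccl21a lay in 1 young cell. Each pool had 1 cycling cell with more macrophage than fibroblast marker UMIs. Rgs5 had 654 UMIs in 5 aged cells and 0 in young cells, at least 165-fold higher at a floor of 3 counts, with 41.3% in 1 cell and 133 against 0 CPM without the top cells. Mcam, another pericyte gene, had 37.9 against 5.46 CPM (6.94-fold, 3.82 to 13.8), with 44.5% in 1 cell and a log2 ratio of 2.52 without the top cells. In cells with fewer than 5 pericyte and smooth muscle marker UMIs Mcam had 4.93 against 4.74 CPM. Mcam and Rgs5 are themselves among those markers, so this fall was set by the cut and nothing is read from it. Mgp, an inhibitor of calcification, had 83.3 against 5.91 CPM with 82.6% in 1 cell (14.6 against 5.20 CPM without the top cells). Dlk1, a Notch-family ligand gene, had 8.26 against 48.2 CPM with 83.0% of the young UMIs in 1 cell (5.20 against 8.40 CPM without). Gzme, a granzyme gene, had 48.9 against 5.91 CPM in 13 and 6 cells, and the predicted gene Gm13889 had 33.4 against 4.09 CPM with 49.5% in 1 cell.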

How the data were processed

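Mouse cells of 2 gene expression libraries, 1 per group, were analysed. The deposited files hold UMI counts for each feature and barcode, and per the file headers the features are genes of both species and antibodies. The submitters' processing notes name Cell Ranger 6.0.0, GRCh38 and mm10. The libraries hold 17757 aged and 16965 young barcodes. UMIs were summed over cells of a class and pool and given as CPM of mouse UMIs. Ratios carry exact Poisson-based intervals and shares exact Clopper-Pearson intervals at 95%, for counting error only. Zero sums were set to 3 counts. Scrublet in scanpy 1.11.5 (expected rate 0.1) scored doublets, and no cell was removed by score. Python 3.11.15, numpy 2.4.6, scipy 1.17.1, pandas 2.3.3 and matplotlib 3.10.9 were used, and the ratio step was tested on simulated data.

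The cells, gene lists (27 with 422 genes) and comparisons were chosen with earlier results of these data known. The 1% collagen division and its like-depth comparison, and the comparison without cells of 5 or more pericyte and smooth muscle marker UMIs, were added after the data were seen, with 6 of 67 aged and 1 of 44 young cycling cells between 0.8% and 1.2%. The text names the 12 highest and 12 lowest class ratios, the 8 highest and 8 lowest pool ratios, up to 3 members at each end of a list, and a fixed set (the rule genes, Cdk1, Ccnb1, Pcna, Mcm6, Cdkn1a, Pdgfra, Pdgfrb, Dcn and Ptprc). Other list members were named after their values were seen. Ptprc, the pan-leukocyte gene, belongs to the leukocyte marker list. Alternatives varied the thresholds, depth, collagen range, scaling and single cells. Gene coordinates and sequences were not used here.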

Additional observations from a re-analysis of the deposited data

Results flagged for a closer look

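A set of 8 genes had ratios of cycling over other fibroblasts that ran in opposite directions in the 2 pools, and the difference was not tested. The log2 ratio was 2.92 in the aged and -3.19 in the young pool for Arg1, 1.78 and -4.52 for Gpnmb, and 2.32 and -5.79 for Mmp12, whose aged UMIs lay almost wholly in 1 cell each. For C1qb it was -1.59 and 1.63, with the young UMIs in 1 cell. Rgs5 had 1.02 and -5.83, the second a bound at 3 counts, and the other pericyte gene Mcam had 1.31 and -1.27. Gm13889 had 1.01 and -2.80, and Bdnf had -1.38 and 1.25.

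Human hashing tags, in data no comparison uses, were also present on these mouse cells. They summed to 17950 counts over the aged and 10180 counts over the young cycling fibroblasts, compared with 0 and 4 counts of mouse hashing tags. Their make-up was close to that of all barcodes of the pool, with H-HTO-2 at 61.4% of human tag counts in aged cycling cells and 57.9% over all aged barcodes, and H-HTO-4 at 64.0% in young cycling cells and 64.7% over all young barcodes. Whether these antibodies bind mouse cells is not stated in the labels.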

How the results depend on the processing

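No paired analysis was possible because each group had 1 gene expression library. The share of cycling cells was 6.73% (aged) and 7.76% (young). At 20 UMIs the aged share was 5.12%. With cycling genes at 0.1% of UMIs the shares were 3.71% and 5.11%, at collagen of 1% or more 4.82% and 5.51%, under 1% 13.1% and 13.1%, and thinned to 3000 UMIs 4.02% and 4.94%. The share of members with more S-phase than mitotic UMIs (16.4% and 15.9%) was 2.70% and 3.45% at 0.1% of UMIs and 9.80% and 5.71% at 20 UMIs. The count of genes higher in cycling cells (287) was 132 under 1% collagen, 134 at like depth with 1% or more, 74 at 100 CPM, 543 at 1.5-fold and 176 at 3-fold. The lower count (123) was 76 at 0.1% of UMIs, 38 under 1% collagen, 11 at like depth, 38 at like depth with 1% or more, 45 at 100 CPM, 226 without a CPM minimum, 189 by mean per-cell CPM, 189 without each gene's top cell, 356 at 1.5-fold and 39 at 3-fold. Cell cycle list members that were higher (125) numbered 64 under 1% collagen, 70 at like depth with 1% or more and 46 at 100 CPM. Fibroblast list members that were lower (23) numbered 11 at 0.1% of UMIs, 8 under 1%, 4 at like depth, 6 at like depth with 1% or more and 13 at 100 CPM. Between pools the counts of 149 and 254 were 31 and 74 at 100 CPM and 37 and 55 at 2-fold. Stricter minima and folds give fewer genes by construction, and for the other moves the cause was not tested.

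For single genes between pools, the log2 ratio changed sign at 20 UMIs for C1qb (2.34), C1qa (4.64) and C1qc (2.08). It did so for Arg1 at 0.1% of UMIs (-0.62) and with more fibroblast than leukocyte and macrophage UMIs (-0.076). It also did so for Areg at 1% collagen or more (3.07) and for Dlk1 under 1% (2.75). In cells with fewer than 5 pericyte marker UMIs it did so for Gm13889 (-1.04) and Dlk1 (0.64). For cycling over other cells in the young pool it changed sign under 1% collagen for Scg3 (0.85) and Itgbl1 (0.39). At like depth it changed sign for Scara5 (0.86), Itgbl1 (0.76), Apod (0.69), Lpl (0.061), Entpd2 (1.51), Reg1 (0.33), Slfn5 (0.053) and Qpct (0.43), and at like depth with 1% or more for Qpct (0.30). The other 931 and 245 values for cycling over other and aged over young kept their direction and side of the threshold, and 16 and 3 kept the direction but not the threshold. Other scalings moved all ratios by at most 0.0708 (log2). Depth limits rare transcripts: ratios with both sums at or under 3 counts were not given.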

Other observations

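Cycling cells with little collagen lay outside the rule. Mouse cells that were not neutrophils and had at least 10 UMIs of the 4 cycling genes but under 0.2% collagen numbered 61 in the aged and 75 in the young pool. Of these 15 and 32 held more fibroblast than leukocyte and macrophage marker UMIs, and between 0.1% and 0.2% collagen these were 4 of 5 and 9 of 9. A lower collagen threshold would therefore add more young than aged cells.

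Xist was found in 5 of 30 aged and 2 of 22 young cycling cells under 1% collagen, and in 11 of 37 and 16 of 22 at or above it. Other fibroblasts had 25 of 199 and 34 of 146 under 1%, and 143 of 730 and 179 of 377 at or above it. Neutrophils had it in 16.8% and 37.8% of cells, at lower depth.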
